A study of Homo sapiens with 10 samples.

Results

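The ATF4 integrated stress and amino acid response was described through 34 listed genes, of which 33 had a probe set on the array that maps to that gene alone. GPT2, an alanine transaminase, had none. For a gene with several, the probe set brightest on average across the 10 arrays was taken, and the 33 stood among 19775 genes measured in this way. Of the 33, 31 were bright enough in the colon cancer cells to be tested: the folate enzyme ALDH1L2 and the lipoprotein receptor VLDLR had no colon cancer array above 6.18 log2, the median of all values in the table. HCT116 is a human colorectal carcinoma line, and Hke3 is a line derived from it and known as a single clone, so that differences between the lines and those of 1 clone cannot be told apart. Each line was profiled on 4 arrays: untreated, given vitamin D3, cocultured with THP1 macrophages, and cocultured and given vitamin D3 together. THP1 is a monocytic leukaemia line, labelled as macrophages and profiled alone and with vitamin D3 on 2 arrays. Vitamin D3 was given for 24 hours, and in coculture the cell types shared soluble factors without touching. Each condition had 1 array. The error of a coculture difference within or between the lines was taken from its spread between arrays once vitamin D3 was allowed for. Tests over both lines, of line averages and of vitamin D3 used a model with 1 coculture term for both lines. There, a coculture difference between the lines adds to the error.

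ATF4 is a basic leucine zipper transcription factor whose translation increases when kinases that sense amino acid shortage, misfolded protein, haem deficiency or viral RNA phosphorylate the initiation factor eIF2. It induces transporters and enzymes that supply amino acids, aminoacyl-tRNA and glutathione precursors, together with a further layer of transcription factors such as CHOP (DDIT3) and brakes such as TRIB3 and PPP1R15A. ATF4 binds composite elements with C/EBP family partners, and in tumour cells the programme is known for sustaining serine, asparagine and cystine supply.

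Levels are the deposited log2 intensities, and differences are log2 differences with the standard error of the limma fit after ±. Probe sets differ in how brightly they respond, so levels were not set against each other between genes. The labelled cell types were checked with marker genes: 8 epithelial genes averaged 11.07 to 11.25 log2 on the colon cancer arrays and 5.73 and 5.80 in THP1. The 14 monocyte and macrophage markers measured averaged 5.48 to 5.65 on the colon cancer arrays and 10.69 and 11.04 in THP1, and 9 to 11 of them lay below 6.18 log2 on each colon cancer array. SRGN, the brightest marker in THP1, stood at 6.28 log2 in the Hke3 array labelled as coculture with vitamin D3 and between 3.93 and 4.90 on the other colon cancer arrays. HLA-DRA, an MHC class II chain among these markers, was dim and rose with coculture by 0.56 ± 0.16 in HCT116 (adjusted p = 0.0472), from 5.42 and 5.98 to 6.31 and 6.21 log2, beside 11.21 and 8.36 in THP1. It was 0.35 ± 0.16 in Hke3 (adjusted p = 0.208) and 0.46 ± 0.11 over both lines (adjusted p = 0.0481). The part of these markers in the results below was not tested. The excess of the 3' over the 5' probe set of ACTB, a measure of RNA degradation, was 0.164 to 0.296 log2 on the HCT116 arrays. In Hke3 the same excess was 0.941 alone, 0.720 with vitamin D3, 0.616 in coculture and 0.561 in coculture with vitamin D3. The ACTB excess thus moved with coculture in that line. For GAPDH the Hke3 values were 0.062, 0.041, -0.001 and 0.020 in the same order, a smaller shift. On the HCT116 arrays the GAPDH values were -0.1 to -0.095. CYP24A1, the vitamin D3-induced hydroxylase, was higher with vitamin D3 by 1.44 in HCT116 and 1.45 in Hke3 without coculture, and the same differences between the cocultures were -0.98 and -1.36. The vitamin D3 labels of the cocultures are therefore in doubt, and line means over both cocultures do not depend on them. The labels of the Hke3 array with vitamin D3 also conflict, since 1 field calls it untreated and the others name vitamin D3, and it was used as a treated array.

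In coculture with THP1 macrophages, the genes that passed were higher in HCT116 and lower in Hke3, and 7 genes passed in both. In HCT116, 13 of the 31 tested genes rose and 0 fell, led by DDIT3 (1.77 ± 0.08), SESN2 (1.14 ± 0.09), TRIB3 (1.09 ± 0.09) and CHAC1 (1.08 ± 0.08). In Hke3, 13 fell and 0 rose, led by PHGDH (-1.04 ± 0.06), JDP2 (-0.78 ± 0.11) and ASNS (-0.73 ± 0.07). The coculture difference of HCT116 minus that of Hke3 was above 0 for 16 genes and below 0 for 0, at an adjusted p of 0.05 in limma. These differences keep their sign. Here and below, the larger difference is the higher signed value and not the larger change. PHGDH, JDP2 and ASNS are among the 16 mainly through their falls in Hke3.

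Among all 13243 genes tested, 2.34% passed with the larger coculture difference in HCT116 and 1.87% with the larger one in Hke3. Of all genes, 7.66% rose and 8.31% fell in HCT116, while 4.09% rose and 3.06% fell in Hke3. The 31 genes and the lists below were chosen with earlier results of these data known, so setting them against all genes is a description and not an independent test. The median difference between the lines was 0.51 over the 31 genes and -0.02 over all genes. Of the 31, 30 lay above 0, as did 6224 of all 13243. Within HCT116 the median of the 31 was 0.26, and within Hke3 it was -0.25, beside -0.02 and -0.01 over all genes. At an unadjusted p under 0.05, 23 of the 31 differed between the lines, 18 with coculture in HCT116 and 22 in Hke3, beside 21.9%, 31.6% and 24.8% of all genes. CHAC1, SESN2, SLC1A4, SLC3A2, SLC7A1, SLC7A11 and TRIB3, 7 genes, rose in HCT116 and also fell in Hke3, which 0.294% of all genes did. Of the 16 genes that differed between the lines, 5 rose in HCT116 without a fall in Hke3 that passed, and 4 fell in Hke3 without a rise in HCT116 that passed.

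Taken pair by pair, as labelled, the median of the 31 genes was 0.19 in HCT116 without vitamin D3 and 0.29 with it, with 25 and 27 genes above 0. It was -0.34 in Hke3 without vitamin D3 and -0.22 with it, with 7 genes above 0 in each pair. For 27 of the 31 genes both HCT116 pairs lay above both Hke3 pairs, a separation shown by 22.9% of all genes. The 16 calls between the lines became 9 without the Hke3 array with vitamin D3 or the HCT116 array labelled as coculture with vitamin D3. They became 10 without the HCT116 array with vitamin D3 or without either untreated array. The 13 rises in HCT116 became 6 without the array with vitamin D3, 7 without the coculture labelled with vitamin D3, and 8 without HCT116 alone or the other coculture. The 13 falls in Hke3 became 2 without the coculture labelled with vitamin D3, 3 without the array with vitamin D3, 4 without Hke3 alone, 5 without the other coculture and 8 with the other factors as a block. No share of all genes was set beside these counts, and leaving out an array leaves fewer arrays to estimate the error. The counts therefore do not show whether the 31 genes lose more calls than other genes. The part of the ACTB shift in the Hke3 values was not tested.

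**Figure D1:**
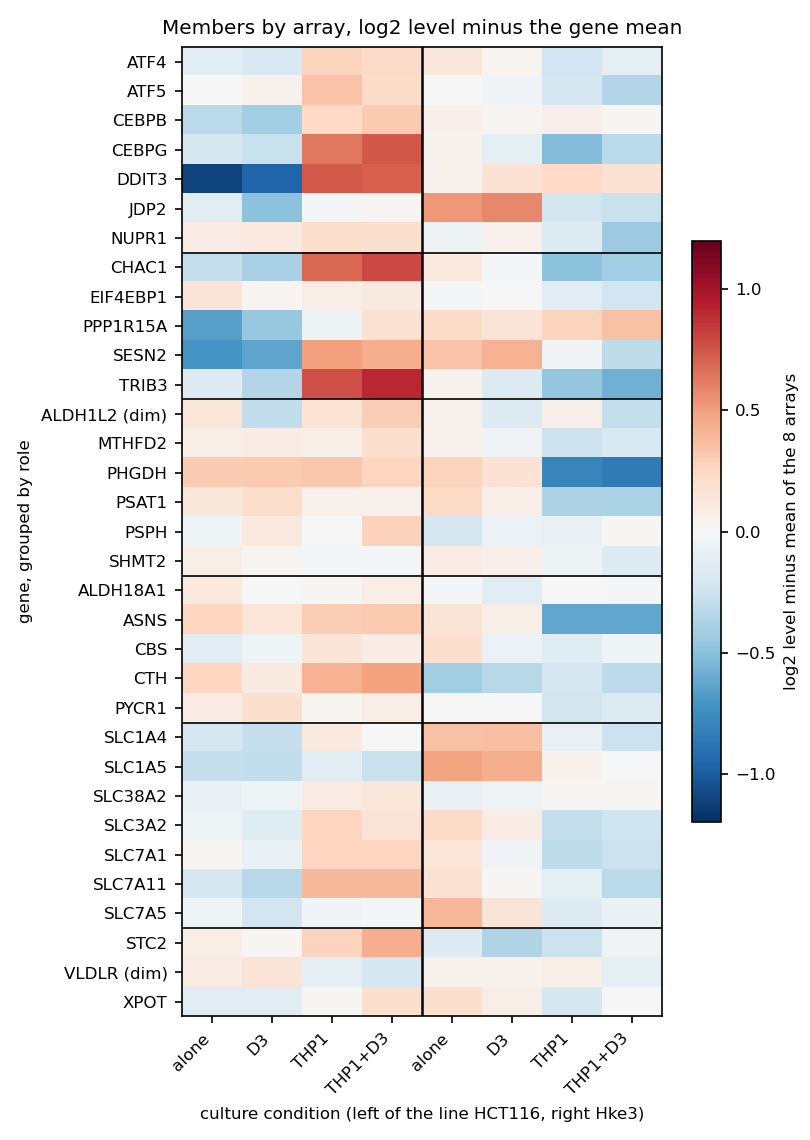
Log2 level of 33 genes on the 8 colon cancer arrays, each gene set to its mean over those arrays; rows are grouped by role and the black vertical line separates HCT116 (left) from Hke3 (right). Red cells gather in the cocultures of HCT116, where DDIT3, TRIB3, CHAC1 and CEBPG stood highest above their means, and blue cells in the cocultures of Hke3, where PHGDH and ASNS stood lowest below theirs.

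As a description, the promoters of the listed genes were searched for the C/EBP-ATF element in the form TGATGNAA, on both strands. The windows were those of RefSeq on GRCh38.p14, 250 bases before to 50 after each start. Such an element was found for 8 of the 26 genes with a window (30.8%), against 4.46% of all genes with a window and 2.86% of those tested. The genes were listed as members of the ATF4 response, so a higher share than among all genes may follow from that choice. The 26 genes have 44 windows, more per gene than among all genes tested, and 6 of the 8 matches fall to the 12 genes with more than 1. Counted by window, 18.2% of theirs held the element against 2.08% of those of tested genes, and among genes with 1 window it was 2 of 14 against 1.67%. The 8 were ASNS, CEBPG, CHAC1, JDP2, SLC1A4, SLC1A5, SLC3A2 and SLC7A1, all among the genes that differed between the lines, of which 15 had a window. ATF4, ATF5, CEBPB, DDIT3, PHGDH, SESN2 and TRIB3 also differed and had a window, but it did not hold the element. Among them are SESN2 and DDIT3, which had the largest differences between the lines (1.69 and 1.67). Of the 10 tested genes with a window that did not differ, 0 held these letters in it. Among the 12 genes with more than 1 window, CBS alone did not differ between the lines. The genes that differed thus had more windows in which a match could fall. A gene without a match may hold the element outside its windows. The split by calls was not tested. A match is a description of the letters and not a measured site. The 5 whose match lies before the start are shown as 60 bases along the gene's strand, 5′ to 3′, with the element in capitals. The matches of SLC1A4, SLC3A2 and SLC7A1 lie over or after the start and are not shown. The stretches show where the letters lie, and the part of the element in the coculture differences was not tested:

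ASNS: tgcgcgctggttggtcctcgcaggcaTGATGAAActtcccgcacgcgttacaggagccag
CEBPG: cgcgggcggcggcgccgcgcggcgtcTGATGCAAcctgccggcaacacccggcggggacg
CHAC1: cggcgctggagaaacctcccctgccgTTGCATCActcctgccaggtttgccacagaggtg
JDP2: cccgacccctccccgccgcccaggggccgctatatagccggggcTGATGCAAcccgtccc
SLC1A5: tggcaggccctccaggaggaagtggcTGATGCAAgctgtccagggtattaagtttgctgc

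The ASNS stretch is chr7:97872443-97872502 on the minus strand, with the element at positions -68 to -61 from the start, the first transcribed base being position 1. The CEBPG stretch is chr19:33374045-33374104 on the plus strand, with the element at -42 to -35. For CHAC1 it is chr15:40953236-40953295 on the plus strand, and the element, read on the opposite strand, lies at -209 to -202. For JDP2 it is chr14:75427962-75428021 on the plus strand, with the element at -16 to -9. For SLC1A5 it is chr19:46784878-46784937 on the minus strand, with the element at -97 to -90. CEBPG, JDP2 and SLC1A5 carry TGATGCAA, CHAC1 carries its reverse complement TTGCATCA, and ASNS carries TGATGAAA.

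Of the 7 transcription factors, 5 rose with coculture in HCT116 and 6 differed between the lines, while 1 fell in Hke3. Of all genes, 7.66% rose in HCT116, 2.34% had the larger difference in HCT116 and 3.06% fell in Hke3. The same shares stand beside the counts of the role groups below. Values of a line are given below in the order alone, vitamin D3, coculture, coculture labelled with vitamin D3. ATF4 itself lay at 13.18, 13.13, 13.58 and 13.55 log2 in HCT116 and at 13.45, 13.35, 13.09 and 13.20 in Hke3. Both HCT116 cocultures were above all other arrays, and both Hke3 cocultures below the other Hke3 arrays. ATF4 rose by 0.41 ± 0.07 in HCT116 (adjusted p = 0.0132), was -0.25 ± 0.07 in Hke3 (adjusted p = 0.078), and differed between the lines by 0.66 ± 0.10 (adjusted p = 0.0175).

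DDIT3 encodes CHOP, a factor that ATF4 induces and that promotes apoptosis under lasting stress. Its levels were 8.68, 8.83, 10.53 and 10.51 log2 in HCT116 and 9.83, 9.96, 10.03 and 9.96 in Hke3. The 4 Hke3 arrays lay between the HCT116 arrays without coculture and those with it, and the HCT116 groups did not overlap. The rise in HCT116 was 3.40-fold (adjusted p = 0.000203), and the value in Hke3 was 0.09 ± 0.08 (95% interval -0.09 to 0.28). The lines differed by 1.67 ± 0.11 (adjusted p = 0.0022).

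CEBPG, a C/EBP partner with which ATF4 forms dimers, stood at 9.97, 9.89, 10.79 and 10.91 log2 in HCT116 and at 10.20, 10.05, 9.64 and 9.84 in Hke3. Its cocultures were the highest arrays of HCT116 and the lowest of Hke3. CEBPG rose by 0.92 ± 0.10 in HCT116 (adjusted p = 0.00308), and its Hke3 value of -0.39 ± 0.10 missed the threshold (adjusted p = 0.0538). The difference between the lines was 1.31 ± 0.14 (adjusted p = 0.00544). CEBPB, a C/EBP factor of inflammation and stress, moved in HCT116, at 11.74, 11.66, 12.30 and 12.38 log2, and stayed between 12.08 and 12.13 on all Hke3 arrays. It rose by 0.64 ± 0.07 in HCT116, was -0.01 ± 0.07 in Hke3, and differed between the lines by 0.65 ± 0.10 (adjusted p = 0.0162).

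JDP2, which binds AP-1 and cAMP response sites as a repressor, showed its change in Hke3. Its levels were 9.13, 9.19, 8.39 and 8.35 log2 in Hke3 and 8.48, 8.12, 8.60 and 8.64 in HCT116. The Hke3 arrays without coculture stood above all others. JDP2 fell by 0.78 ± 0.11 in Hke3 (adjusted p = 0.00847), was 0.32 ± 0.11 in HCT116 (adjusted p = 0.0843), and differed between the lines by 1.10 ± 0.15 (adjusted p = 0.0129). ATF5, a factor related to ATF4 and likewise under translational control, rose by 0.26 ± 0.07 in HCT116 and differed between the lines by 0.51 ± 0.10 (adjusted p = 0.0395), with -0.25 ± 0.07 in Hke3. NUPR1, a stress-induced chromatin protein, was dim in these cells, at 6.15 to 6.79 log2, and its difference between the lines of 0.38 ± 0.13 did not pass (adjusted p = 0.152). The calls between the lines were lost in some of the 16 alternatives tried: 8 for ATF4, 11 for ATF5, 6 for CEBPB and 2 for JDP2 (whose mean of probe sets gave 0.67), and none for DDIT3 or CEBPG.

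Among the 5 genes of feedback and signalling, 4 rose in HCT116, 3 fell in Hke3 and 3 differed between the lines. SESN2, a leucine-binding inhibitor of mTORC1 signalling, lay at 8.41, 8.49, 9.62 and 9.56 log2 in HCT116 and at 9.47, 9.54, 9.09 and 8.82 in Hke3. Coculture took HCT116 from below all Hke3 arrays to above them. SESN2 rose 2.20-fold in HCT116 (adjusted p = 0.00163) and fell 1.47-fold in Hke3 (adjusted p = 0.0181), a difference of 1.69 ± 0.13 between the lines (adjusted p = 0.00265).

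TRIB3, a pseudokinase that restrains ATF4 and AKT, stood at 11.26, 11.07, 12.19 and 12.32 log2 in HCT116 and at 11.46, 11.25, 10.95 and 10.84 in Hke3. Without coculture the lines overlapped, and with it they stood apart. It rose 2.13-fold in HCT116 (adjusted p = 0.00163), fell 1.38-fold in Hke3 (adjusted p = 0.0318), and differed by 1.55 ± 0.13 between the lines (adjusted p = 0.00305). CHAC1, which degrades glutathione, lay at 8.84, 8.74, 9.82 and 9.92 log2 in HCT116 and at 9.25, 9.11, 8.64 and 8.71 in Hke3. Its Hke3 arrays without coculture were above those of HCT116, and in coculture the order was turned. CHAC1 rose 2.12-fold in HCT116 (adjusted p = 0.00127), fell 1.42-fold in Hke3 (adjusted p = 0.0169), and differed by 1.59 ± 0.12 (adjusted p = 0.0022).

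PPP1R15A (GADD34) directs the phosphatase that removes the phosphate from eIF2. At 8.24, 8.44, 8.83 and 9.07 log2 it rose in HCT116 by 0.61 ± 0.09 (adjusted p = 0.00699). In Hke3 it stood at 9.05 to 9.24 log2 on all arrays, above every HCT116 array but the coculture labelled with vitamin D3, and its value of 0.12 ± 0.09 did not pass. The difference between the lines, 0.49 ± 0.12, missed the threshold (adjusted p = 0.0663). EIF4EBP1, which holds back cap-dependent translation, had coculture values of 0.01 ± 0.07 in HCT116 and -0.17 ± 0.07 in Hke3, and the 95% interval of the difference between the lines ran from -0.06 to 0.42.

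**Figure D2:**
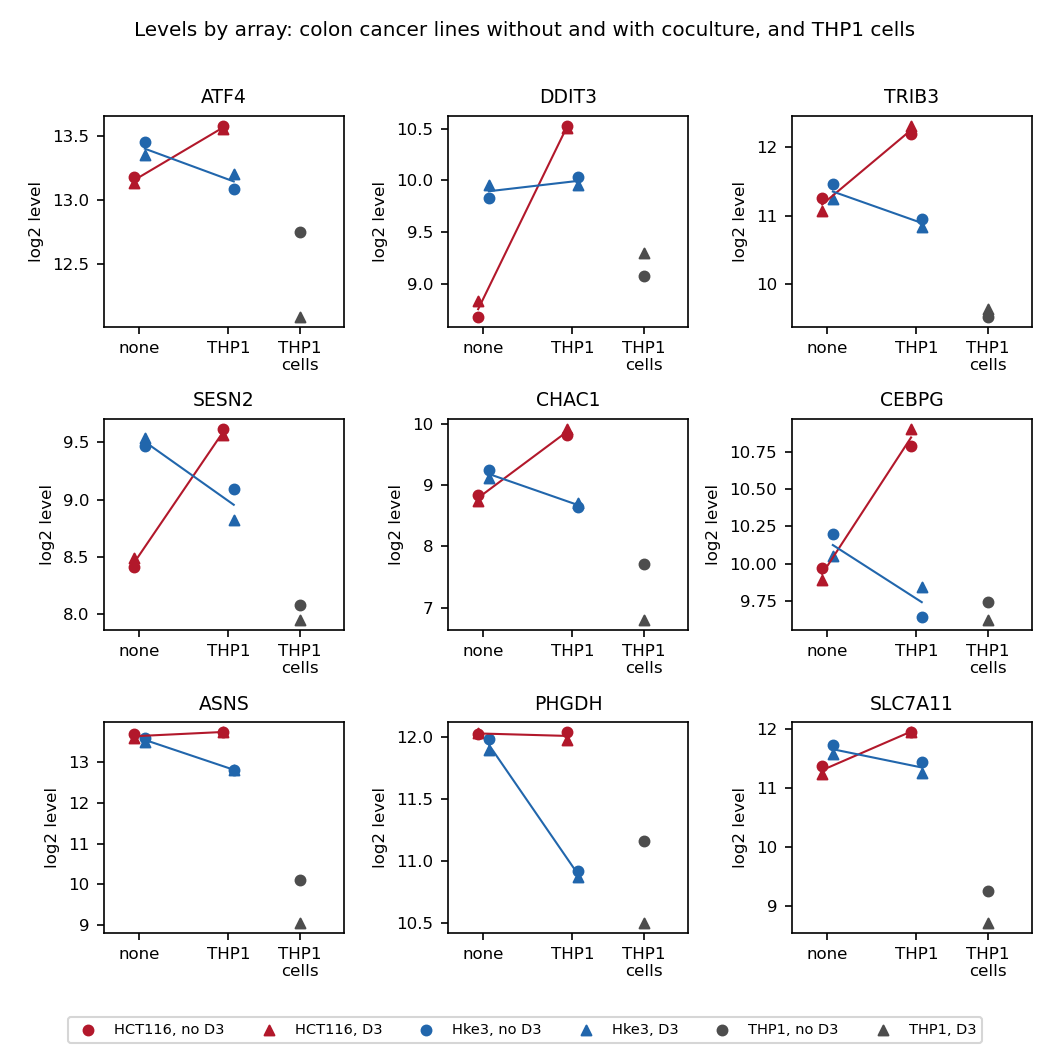
Log2 level of 9 genes on each array, with lines joining the means of the arrays without and with coculture of HCT116 (red) and Hke3 (blue); circles are arrays without vitamin D3, triangles those labelled with it, and grey points the THP1 cells; y axes differ between panels and do not start at 0. DDIT3, TRIB3, SESN2 and CHAC1 climb in HCT116, while ASNS and PHGDH stay level in HCT116 and drop in Hke3.

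The serine and one-carbon enzymes gave their calls in Hke3 alone among the tests by line: 0 of 5 tested rose or fell in HCT116, where 0 had an unadjusted p under 0.05 in limma (31.6% of all genes did), and 2 fell in Hke3. PHGDH, the first enzyme of serine synthesis, lay at 12.02, 12.03, 12.04 and 11.97 log2 in HCT116 and at 11.98, 11.89, 10.92 and 10.87 in Hke3. Apart from the 2 Hke3 cocultures, all colon cancer arrays lay between 11.89 and 12.04 log2. PHGDH fell 2.06-fold in Hke3 (adjusted p = 0.000742), was -0.02 ± 0.06 in HCT116 (95% interval -0.17 to 0.13), and differed between the lines by 1.02 ± 0.09 (adjusted p = 0.00366). PSAT1, the serine pathway transaminase, fell by 0.52 ± 0.07 in Hke3 (adjusted p = 0.00977), from 13.20 and 13.04 log2 to 12.60 and 12.59. Its value in HCT116 was -0.13 ± 0.07, and the difference between the lines of 0.40 ± 0.10 did not pass (adjusted p = 0.0803).

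PSPH, which completes serine synthesis, did not follow PHGDH in its brightest probe set, with 0.11 ± 0.07 in HCT116 and 0.10 ± 0.07 in Hke3. A second PSPH probe set gave 0.51 between the lines without passing (adjusted p = 0.0956). MTHFD2, the mitochondrial folate enzyme, differed between the lines by 0.27 ± 0.11 (adjusted p = 0.187), and SHMT2, which splits serine to glycine in mitochondria, by 0.11 ± 0.09 (95% interval -0.10 to 0.32). ALDH1L2, a mitochondrial folate dehydrogenase, lay between 5.09 and 5.68 log2 on the colon cancer arrays and was not tested there.

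Of 5 other amino acid enzymes, ASNS alone passed a coculture test. ASNS, asparagine synthetase and a standard ATF4 target, stood at 13.70, 13.59, 13.74 and 13.76 log2 in HCT116 and at 13.60, 13.51, 12.82 and 12.82 in Hke3. All arrays but the Hke3 cocultures lay between 13.51 and 13.76. The fall in Hke3 was 1.66-fold (adjusted p = 0.00209), the value in HCT116 was 0.11 ± 0.07 (95% interval -0.05 to 0.26), and the lines differed by 0.83 ± 0.09 (adjusted p = 0.00673), or by 0.50 with the mean of its probe sets (adjusted p = 0.0151). The proline enzymes PYCR1 and ALDH18A1 differed between the lines by 0.10 ± 0.09 and -0.07 ± 0.10, and CTH, which makes cysteine from cystathionine, by 0.14 ± 0.11. CBS, which makes cystathionine, differed by 0.36 ± 0.14 (adjusted p = 0.176), an uncertain value because the genome holds the near-identical copy CBSL.

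The 7 amino acid transporters gave the most falls in Hke3: 6 fell there, 4 rose in HCT116 and 5 differed between the lines. SLC7A11, the cystine/glutamate exchanger, lay at 11.37, 11.24, 11.96 and 11.96 log2 in HCT116 and at 11.74, 11.58, 11.45 and 11.25 in Hke3. Its HCT116 cocultures were the highest arrays of all. SLC7A11 rose 1.58-fold in HCT116 (adjusted p = 0.00388), fell 1.24-fold in Hke3 (adjusted p = 0.0475), and differed by 0.97 ± 0.10 between the lines (adjusted p = 0.00582). SLC3A2, the heavy chain shared by SLC7A11 and SLC7A5, stood at 11.48, 11.38, 11.79 and 11.68 log2 in HCT116 and at 11.76, 11.62, 11.24 and 11.29 in Hke3. Coculture exchanged the order of the lines. SLC3A2 rose by 0.30 ± 0.07, fell by 0.43 ± 0.07, and differed by 0.72 ± 0.10 (adjusted p = 0.0137).

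SLC7A5, the large neutral amino acid exchanger that pairs with SLC3A2, fell in Hke3 by 0.40 ± 0.09 (adjusted p = 0.0422), from 13.09 and 12.85 to 12.54 and 12.61 log2. Its value in HCT116 was 0.12 ± 0.09, and the difference between the lines, 0.52 ± 0.13, missed the threshold (adjusted p = 0.0663). SLC1A4, a transporter of alanine, serine and cysteine, rose by 0.31 ± 0.07 in HCT116 and fell by 0.53 ± 0.07 in Hke3 (difference 0.84 ± 0.10, adjusted p = 0.00794). SLC1A5, the glutamine transporter of the same family, fell by 0.42 ± 0.07 in Hke3, was 0.09 ± 0.07 in HCT116, and differed by 0.51 ± 0.09 (adjusted p = 0.0293). SLC7A1, which carries arginine and lysine, rose by 0.29 ± 0.08, fell by 0.33 ± 0.08, and differed by 0.62 ± 0.11 (adjusted p = 0.0262). SLC38A2, the glutamine and alanine transporter SNAT2, was an exception, at 0.19 ± 0.06 in HCT116 and 0.08 ± 0.06 in Hke3 with an interval of the difference from -0.09 to 0.32. Of the 16 alternatives, the calls between the lines were lost in 11 for SLC7A1 (whose mean of probe sets gave 0.35), 10 for SLC1A5, 6 for SLC3A2 and none for SLC7A11 or SLC1A4.

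Of the remaining genes, STC2, a secreted stanniocalcin, and XPOT, which exports tRNA from the nucleus, were tested, and neither passed for coculture in either line or between them. STC2 had 0.31 ± 0.11 in HCT116 and 0.10 ± 0.11 in Hke3, and XPOT 0.24 ± 0.09 and -0.24 ± 0.09. A second XPOT probe set did pass between the lines (0.88, adjusted p = 0.0142). Of the 31 genes, 17 had 27 further probe sets bright enough to test. The 15 that belong to genes that differed between the lines all lay above 0, and 6 of them passed. None of those of ATF5 or SLC7A1 passed. Those of SLC1A4 gave 1.13, 0.80 and 0.37 in limma (adjusted p = 0.00413, 0.0506 and 0.105).

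**Figure D3:**
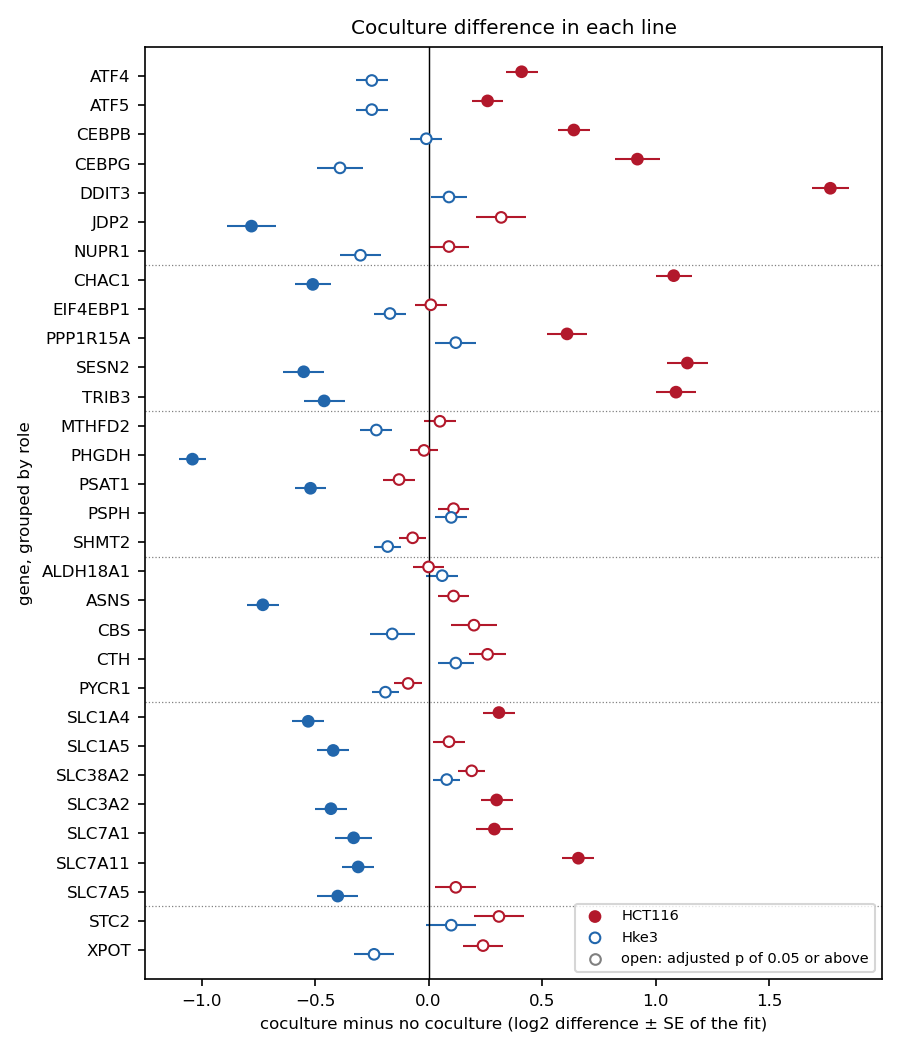
Coculture minus no coculture as a log2 difference in HCT116 (red) and Hke3 (blue) for the 31 tested genes, with bars of 1 standard error of the fit; filled points have an adjusted p under 0.05, and dotted lines separate roles. Red points lie right of blue ones for 30 of the 31 genes, PHGDH and ASNS mainly through blue points left of 0 and DDIT3, CEBPB and CEBPG mainly through red points right of 0.

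Seen from the lines, the order of HCT116 and Hke3 was turned in coculture for 16 of the 31 genes. Without coculture 18 of the 31 genes were higher in Hke3 in both pairs of arrays, and with coculture 2 were, PPP1R15A and SLC1A5, while 29 were lower in Hke3 in both pairs. The counts of 18, 2 and 29 were not made over all genes. For 16 genes Hke3 was above HCT116 in both pairs without coculture and below it in both with coculture, an order that 5.57% of all genes showed. Some of these gaps were close to 0: without coculture they were 0.01 in both pairs for SLC38A2, and 0.02 and 0.03 for SHMT2. The log2 level of DDIT3 in Hke3 minus that in HCT116 was 1.15 between the untreated arrays and -0.50 between the cocultures without vitamin D3. The same differences were 1.06 and -0.53 for SESN2, 0.41 and -1.19 for CHAC1, and 0.21 and -1.24 for TRIB3.

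Averaged over all 4 conditions, Hke3 differed from HCT116 in 12 of the 31 genes. The model held 1 coculture term for both lines, so coculture differences between the lines widened the error. PPP1R15A (0.50 ± 0.11, adjusted p = 0.00708) and SLC1A5 (0.48 ± 0.10, adjusted p = 0.00656) were higher in Hke3, as 24.8% of all genes were. The 10 lower ones, beside 15.7% of all genes, were CTH, PHGDH, ASNS, STC2, ATF5, NUPR1, MTHFD2, PYCR1, PSPH and EIF4EBP1. CTH was below HCT116 in every condition, at 8.74, 8.83, 8.96 and 8.85 log2 in Hke3 against 9.42, 9.27, 9.58 and 9.64. Its 4 Hke3 arrays did not overlap with the HCT116 arrays (-0.63 ± 0.07, adjusted p = 0.000235), and it did not pass for coculture. STC2 differed by -0.41 ± 0.09 (adjusted p = 0.00705), with Hke3 arrays from 9.91 to 10.23 log2 and HCT116 arrays from 10.29 to 10.71. PHGDH and ASNS averaged -0.60 ± 0.18 and -0.51 ± 0.15, with their lowest arrays in the cocultures of Hke3. No share of all genes was set beside the alternative counts that follow. The count of 12 became 4 without any 1 of the Hke3 cocultures or without the HCT116 coculture labelled with vitamin D3, 5 without the other HCT116 coculture, and 7 with arrays centred on their medians.

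Over both lines together, 0 of the 31 genes passed for coculture in limma, beside 7.82% of all genes. At an unadjusted p under 0.05 there were 10 of the 31, beside 26.2% of all genes. This model held no coculture term per line, so unlike changes in the lines widened its error. For DDIT3 the error was 0.30, against 0.08 within HCT116. The count of 0 therefore does not show that an average change was absent. The median of the 31 was 0, and the values ran from -0.53 for PHGDH to 0.93 for DDIT3. The vitamin D3 test over all colon cancer arrays rests on the coculture labels in doubt and did not call CYP24A1 itself, whose pairs of opposite sign averaged 0.14 ± 0.47 (adjusted p = 1). In that test 0 of the 31 passed in limma, with 1, PSPH, at an unadjusted p under 0.05, which therefore does not show how the 31 respond to vitamin D3. It called 0% of all genes, with 375 of the 13243 at an unadjusted p under 0.05. Without coculture the largest absolute vitamin D3 difference of any of the 31 was 0.36 in HCT116 (JDP2) and 0.27 in Hke3 (CBS), with medians of -0.05 and -0.09. In the cocultures, whose vitamin D3 labels are in doubt, the largest were 0.28 (PSPH) and 0.27 (NUPR1), with medians of 0.02 and -0.01.

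In THP1 cells the response was described without a test, since vitamin D3 and no treatment had 1 array each. Of the 31 genes above 6.18 log2 there (CTH and STC2 were not), 8 were lower with vitamin D3 by more than 1.5-fold, beside 2.23% of all genes, and 1 was higher, beside 4.36%. Past 2-fold these 9 became 1, ASNS, and no share of all genes at that fold was set beside it. ASNS went from 10.10 to 9.05 log2, CHAC1 from 7.72 to 6.80, SLC7A5 from 9.45 to 8.59 and PSAT1 from 11.72 to 10.96. ATF4 went from 12.75 to 12.09, PHGDH from 11.16 to 10.50, SLC1A4 from 9.77 to 9.09 and ALDH1L2 from 6.69 to 5.86. The lower genes thus include the factor, serine and asparagine enzymes and transporters. NUPR1 was the higher one, from 7.20 to 7.98. DDIT3 (9.08 to 9.30), TRIB3 (9.52 to 9.64) and PPP1R15A (7.55 to 7.71) lay slightly higher with vitamin D3. In all, 24 genes were lower and 7 higher, with a median of -0.17 against -0.01 over all genes. CYP24A1 went from 4.51 to 10.40 log2 on the same arrays.

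Against the colon cancer arrays, both THP1 arrays were below all 8 for 23 of the 33 genes and above all 8 for 5, namely ALDH1L2, CBS, NUPR1, SLC1A4 and VLDLR. These counts were not made over all genes. They therefore do not show whether the 33 genes stand apart from other genes between the cell types. VLDLR was at 9.91 and 9.74 log2 in THP1 and between 3.72 and 4.07 in the colon cancer cells. ATF5, CEBPG, DDIT3, EIF4EBP1 and PHGDH lay within or across the colon cancer range.

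**Figure D4:**
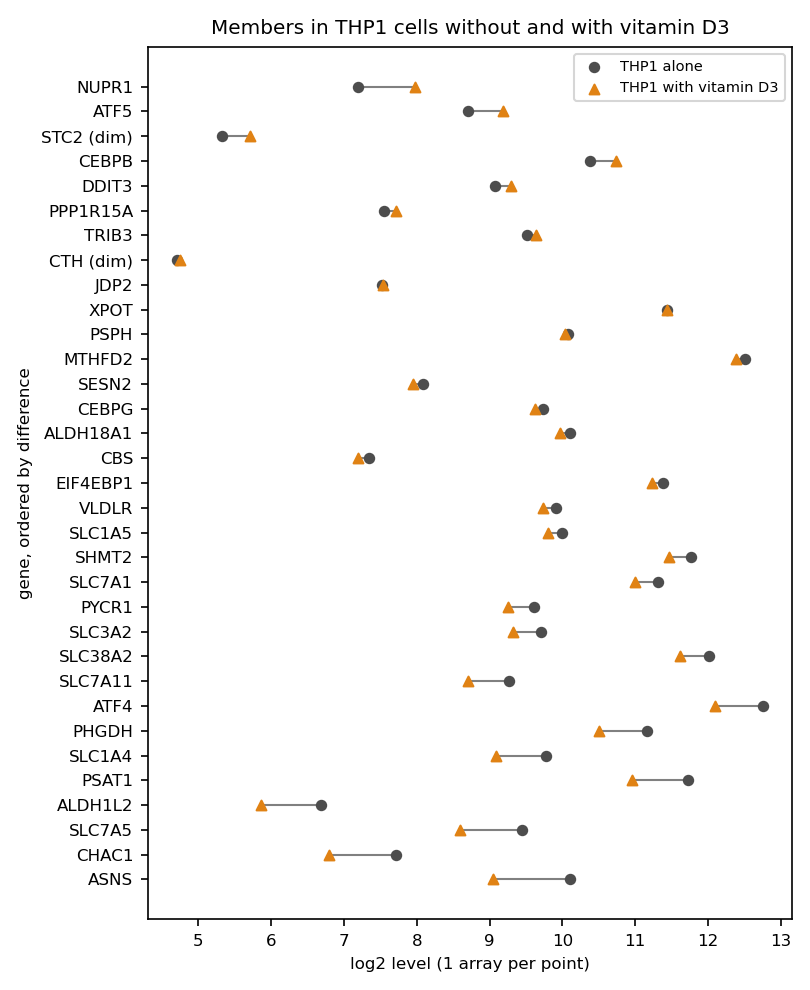
Log2 level of 33 genes in THP1 cells without (grey circles) and with vitamin D3 (orange triangles), 1 array each, ordered by their difference; genes marked dim had neither array above 6.18 log2. ASNS, CHAC1 and SLC7A5 show the largest drops and NUPR1 the largest climb.

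Other genes of the pathway were taken from lists by function. The upstream machinery, meaning the eIF2 kinases with their regulators, the eIF2 subunits and the exchange factor eIF2B, had 0 of 17 genes different between the lines in limma, and their median was 0. At an unadjusted p under 0.05 there were 4 of the 17, beside 21.9% of all genes. The closest to passing were GCN1, which activates the amino acid sensing kinase (-0.35 ± 0.10, adjusted p = 0.091), EIF2B2 (-0.29 ± 0.09), EIF2S1 (-0.29 ± 0.10) and EIF2S2 (0.23 ± 0.09). In HCT116 4 of the 17 fell and 1 rose, beside 8.31% and 7.66% of all genes. GCN1, EIF2B2, EIF2S1 and EIF2AK2 fell by 0.30 to 0.34. IMPACT, an inhibitor of the amino acid sensing kinase, rose by 0.29. EIF2AK2 and IMPACT were named after their values were seen. In Hke3 0 passed in limma, with 3 at an unadjusted p under 0.05, beside 24.8% of all genes.

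Among 15 other ATF4 or CHOP target genes, 7 had the larger coculture difference in HCT116 and 0 in Hke3, with a median of 0.59. The shares of all genes were 2.34% and 1.87%. GDF15, a stress-induced cytokine, rose 2.12-fold in HCT116 and differed between the lines by 0.99 ± 0.11 (adjusted p = 0.00582). GADD45A, a growth arrest gene, differed by 1.07 ± 0.12, GRB10, an adaptor that restrains insulin signalling, by 0.83 ± 0.09, and the lysosomal gene LAMP3 by 2.02 ± 0.26. When all probe sets of a gene were averaged, the difference was 0.36 for GDF15 and 0.50 for GRB10, and the LAMP3 call was lost in 3 of the 16 alternatives. In HCT116 9 of the 15 rose and 0 fell, while in Hke3 2 rose and 2 fell. Of all genes, 7.66% rose and 8.31% fell in HCT116, and 4.09% rose and 3.06% fell in Hke3. The rises in Hke3 were those of ERO1A, an endoplasmic reticulum oxidase (0.79), and DDIT4, an mTORC1 inhibitor also induced by hypoxia (0.55), and the falls those of GRB10 (-0.37) and PCK2 (-0.47); ERO1A, DDIT4 and PCK2 were named after their values were seen.

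The other arms of the unfolded protein response gave 6 of 16 genes with the larger difference in HCT116 and 0 in Hke3. The shares of all genes were 2.34% and 1.87%. ATF6, a stress sensor of the endoplasmic reticulum, rose 1.81-fold in HCT116 and differed by 1.01 ± 0.09 (adjusted p = 0.00384). SEL1L and HERPUD1, of the degradation machinery, differed by 0.72 ± 0.09 and 0.78 ± 0.10, and the chaperone HYOU1 by 0.79 ± 0.13. These calls were lost in 4, 4 and 6 of the 16 alternatives, and the mean of its probe sets gave 0.45 for HERPUD1. In HCT116 8 of the 16 rose and 1 fell, beside 7.66% and 8.31% of all genes. In Hke3 0 rose and 2 fell, beside 4.09% and 3.06%.

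Among autophagy genes, 1 of 14 differed between the lines, with the larger difference in HCT116, beside 2.34% of all genes. It was MAP1LC3B, the LC3 gene (0.75 ± 0.11, adjusted p = 0.0168), which rose 1.91-fold in HCT116; its call between the lines was lost in 6 of the 16 alternatives. ATG3 (0.24 ± 0.10), NBR1 (0.16 ± 0.10) and ATG7 (0.15 ± 0.11) did not pass. Of 16 other amino acid transporters 1 differed, the taurine carrier SLC6A6, with the larger difference in Hke3 (-0.91 ± 0.16, adjusted p = 0.0243), where it rose by 0.61. Of all genes, 1.87% had the larger difference in Hke3. Single calls in lists of 14 or 16 genes say little about the lists. The SLC6A6 call was lost in 7 of the 16 alternatives, and with the mean of its probe sets the value was -0.49. SLC16A10 (-0.35), SLC38A1 (0.39) and SLC43A1 (0.32) did not pass. Of 10 other one-carbon and glycine genes 0 differed, with 3 at an unadjusted p under 0.05 in limma, beside 21.9% of all genes. Their values nearest to passing were -0.49 ± 0.13 for MTHFD2L, 0.29 ± 0.11 for MAT2A, -0.26 ± 0.11 for AHCY and 0.26 ± 0.12 for GLDC.

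**Figure D5:**
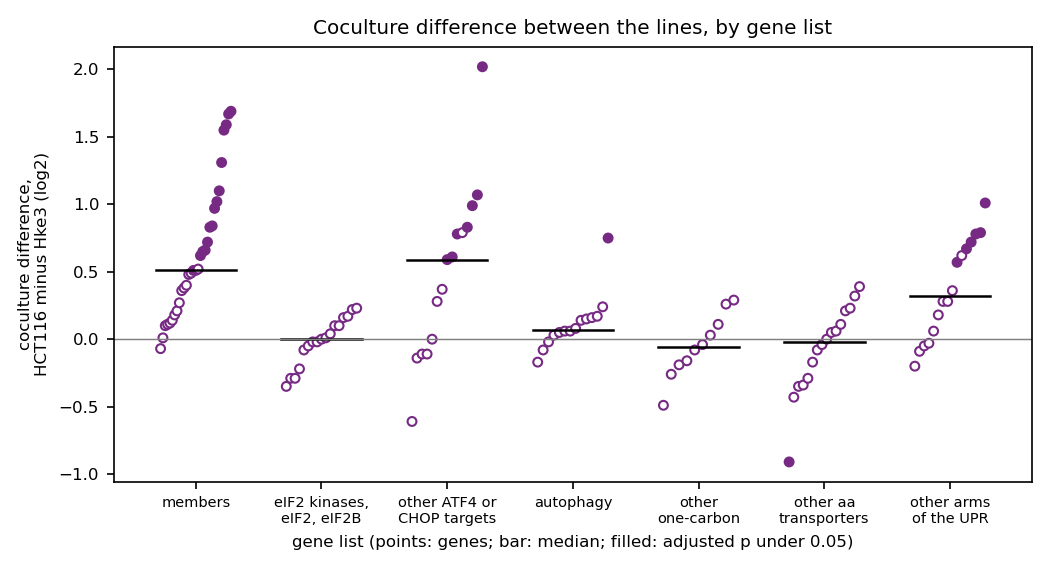
Difference between the lines in the coculture difference (HCT116 minus Hke3, log2) for the 31 tested genes and for 6 other lists; each point is a gene, bars are list medians, and filled points have an adjusted p under 0.05 (aa, amino acid; UPR, unfolded protein response). The medians are 0.51 for the 31 genes, 0.59 for other ATF4 or CHOP targets and 0 for the upstream machinery.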

How the data were processed

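Values are log2 intensities per probe set that the authors deposited, made with RMA through the R package affy per the submitters' processing notes (versions not given in the sources used here). Of 54675 probe sets, 41097 map to 1 gene symbol, 1801 to several and 11777 to none. Genes were tested where the highest of the 8 colon cancer arrays exceeded 6.18 log2 (13243 genes; 12717 by the same rule in THP1). limma 3.58.1 in R 4.3.3 fitted line, coculture within each line and vitamin D3 (3 residual degrees of freedom), and an additive model for line, coculture and vitamin D3 overall (4). Tests were two-sided, with Benjamini-Hochberg adjustment over all genes tested and a threshold of 0.05. The script was tested on simulated data. Nothing in the labels says that arrays come from separate cultures, so p-values measure only the spread between these arrays, whose number limits the precision. The members and lists were chosen with earlier results of these data known. All members past the threshold are named, and ATF4, DDIT3, ASNS and TRIB3 always. Of each other list up to 4 genes are named, past the threshold between the lines first and then by smallest p. Further genes of those lists passed and are not all named. The alternatives were other filters on dim genes, the mean of probe sets, median-centred or cyclic loess arrays, trend and robust fitting, no vitamin D3 labels, a block of the other factors, a fold of 2 in THP1, and each array left out. Figures were drawn with matplotlib 3.10.9.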

Additional observations from a re-analysis of the deposited data

Results flagged for a closer look

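The coculture difference of HCT116 minus that of Hke3 passed its own test in limma for 16 genes of the response. It also passed for 10 of the genes named from other lists by smallest p. Each of these results stands out because the lines differ under the same contrast. Among transcription factors the value was 0.66 for ATF4, 0.51 for ATF5, 0.65 for CEBPB, 1.31 for CEBPG, 1.67 for DDIT3 and 1.10 for JDP2. Among feedback and signalling genes it was 1.69 for SESN2, 1.59 for CHAC1 and 1.55 for TRIB3. The enzymes PHGDH and ASNS gave 1.02 and 0.83. The transporters SLC7A11, SLC1A4, SLC3A2, SLC7A1 and SLC1A5 gave 0.97, 0.84, 0.72, 0.62 and 0.51. Other ATF4 or CHOP targets stood at 2.02 for LAMP3, 1.07 for GADD45A, 0.99 for GDF15 and 0.83 for GRB10. In the other arms of the unfolded protein response the values were 1.01 for ATF6, 0.79 for HYOU1, 0.78 for HERPUD1 and 0.72 for SEL1L. MAP1LC3B gave 0.75, and SLC6A6, the only one of these with the larger difference in Hke3, gave -0.91.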

How the results depend on the processing

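No paired analysis was possible because no condition has replicates whose numbers could pair; a block that sets arrays of matching conditions side by side was fitted instead and left 12 calls between the lines and 9 rises in HCT116. Of the 16 genes that differed between the lines, 9 (ASNS, CEBPG, CHAC1, DDIT3, PHGDH, SESN2, SLC1A4, SLC7A11 and TRIB3) passed under all 16 alternatives, and 0 called values of the genes named changed sign. With 1 array left out at a time the count of 16 ranged from 9 to 12, the 13 rises in HCT116 from 6 to 12, the 13 falls in Hke3 from 2 to 10 and the 12 line differences from 4 to 10. A block of the other factors left 8 falls in Hke3, and median-centred arrays left 7 line differences. For coculture over both lines, where 0 passed, the count was 1 with the filter at the 75th percentile, 2 with the mean of probe sets, 2 with trend and robust fitting and 1 without vitamin D3 labels. The 9 THP1 genes past 1.5-fold became 1 at a fold of 2. No share of all genes was set beside these alternative counts, so they do not show whether the genes of the response lose more calls than other genes. The causes of these moves were not tested. With 1 array per condition and 3 or 4 residual degrees of freedom, small differences cannot be separated from the spread between arrays, and a difference that missed the threshold is not shown to be absent.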
